A study of Homo sapiens with 24 samples.

Results

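The matrix metalloproteinase (MMP) and TIMP genes *MMP1*, *MMP3*, *MMP10*, *MMP12*, *MMP2*, *MMP14*, *MMP19*, *TIMP1*, *TIMP2* and *TIMP3* were chosen by symbol, 10 of the 25702 gene identifiers in the count files, and followed across RAS-induced senescence with and without a hairpin that lowers *HMGA1*. In the presence of the *HMGA1* hairpin, 6 days of 4OHT raised all 4 genes of the chromosome 11 cluster (*MMP1*, *MMP3*, *MMP10* and *MMP12*) by 7.93-fold to 13.4-fold and *TIMP1* by 3.09-fold, and lowered *MMP2*, *TIMP2* and *TIMP3*. There, 19.6% of all genes were called higher and 19.5% lower. With the control vector, the same comparison gave 0 calls in all 24 samples, where 0% of all genes were called. It gave 7 calls in the 22 samples left without a library of each group that went against its label, where 19.2% of genes were called higher and 20.5% lower. Those libraries stood out in values of these same members, among other genes, so the 7 calls rest in part on that choice. In the edgeR fit over all groups, no member was called between RIS+shHMGA1 and RIS, or for a response to 4OHT that differed with the hairpin, with or without those libraries. Other fits called up to 3 members between RIS+shHMGA1 and RIS, where DESeq2 called 12.8% of genes and edgeR without number 4 called 16.5%. With the replicate number as a block 1 member, *MMP2*, was called, and 12.3% of genes.

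RNA-seq libraries of mRNA were made from IMR90, a line of human diploid lung fibroblasts, at passage 23 to 28, with 6 biological replicates in each of 4 groups. All 4 groups carried retroviral ER:HRAS(G12V), an oncogenic RAS fused to an oestrogen receptor domain that 4-hydroxytamoxifen (4OHT) switches on. The growing group carried the empty MSCV vector and had no 4OHT, and the RIS group carried the same vector and had 4OHT for 6 days. The shHMGA1 group carried the MSCV miR30 hairpin against *HMGA1* and had no 4OHT, and the RIS+shHMGA1 group carried that hairpin and had 4OHT for 6 days. The labels name a single cell line and a single hairpin, and no off-target control hairpin was among the groups used here.

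MMPs are zinc-dependent proteases that cut the extracellular matrix, cytokines and one another. They are secreted or held at the membrane as inactive pro-enzymes. TIMPs bind the active site and inhibit them. Secreted MMPs, above all the collagenase and the stromelysins, are well known parts of the secretory programme of senescent fibroblasts, and HMGA1 is an architectural chromatin protein of senescent nuclei.

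In the GRCh37 annotation (GENCODE release 44 lifted to that build), *MMP10* (102641233 to 102651359), *MMP1* (102660132 to 102668891), *MMP3* (102706532 to 102714340) and *MMP12* (102733467 to 102745712) lie in this order on the minus strand of chromosome 11, within 104480 bases. Their canonical transcripts were of similar length, from 1759 to 1971 bases over 10 or 11 exons. The other 6 genes lay on 6 other chromosomes: *MMP2* on 16, *MMP14* on 14, *MMP19* on 12, *TIMP1* on X, *TIMP2* on 17 and *TIMP3* on 22. The transcripts of *MMP3* and *MMP10* shared an exact run of 96 bases, so that short reads from it can fit both genes. No other pair of members shared more than 19 bases.

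RefSeq promoter sequences (GRCh38.p14, from 250 bases before to 50 bases after the start site) were at hand for 4 members, 1 of them in the cluster. The 30 bases that end 16 bases before each start site are shown because they differ in the core promoter word TATAAA (capitals), searched on the gene's own strand.
MMP10, chr11:102780644-102780673, minus strand: cagcattgtctctgTATAAAagaaaggcca
MMP14, chr14:22836540-22836569, plus strand: tgtgggagaagggagggaccagaggagaga
TIMP1, chrX:47582391-47582420, plus strand: ccgcccctagcgtggacatttatcctctag
TIMP3, chr22:32801660-32801689, plus strand: ccgggggcccagcgctatatcactcggccg
Of these promoters, that of *MMP10* alone held TATAAA, starting at position -31, and 7.71% of 27305 RefSeq promoters of the same length held it. Its GC content was 36.3%, against 55% for *MMP14*, 65% for *TIMP1* and 72.7% for *TIMP3* and a median of 58.3% over all promoters. The AP-1 word TGAGTCA, read on both strands (its reverse complement is TGACTCA), was in none of the 4 windows and in 4.92% of all promoters. These matches describe the letters of the windows.

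Total counts ranged from 8698070 to 23103424 per library. *HMGA1*, the target of the hairpin, lay at 638.9 to 860.9 CPM (counts scaled to library size after TMM normalisation) in growing cells and at 54.4 to 143 CPM in shHMGA1 cells, with a log2 fold change of -2.76 ± 0.31 (SE, adjusted p = 1.9e-05, from the quasi-likelihood test of edgeR, Benjamini-Hochberg adjusted, as for all adjusted p-values below). In RIS it lay at 640.6 to 785.9 CPM and in RIS+shHMGA1 at 59.98 to 261.8 CPM (log2 fold change -2.05 ± 0.30, adjusted p = 0.00065). The 9 fibroblast markers summed to 5232 CPM or more in every library, while the macrophage and leukocyte markers summed to at most 3.8 CPM, the epithelial to at most 12 CPM and the endothelial to at most 2.01 CPM. The fibroblast sum was itself lower in the 4OHT groups, with medians of 33202 CPM (growing), 21038 CPM (shHMGA1), 10172 CPM (RIS) and 5512 CPM (RIS+shHMGA1), and its part in the results was not tested. In bulk RNA, fewer cells that express a gene and less of its RNA per cell cannot be told apart.

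A pair of libraries went against their labels. The library labelled growing replicate 4 held 77393 CPM of *MMP1*, against 2288 to 6727 CPM in the other 5 growing libraries, and only 54.7 CPM of *TIMP3*, against 449.4 to 783.4 CPM. The library labelled RIS replicate 2 held 4728 CPM of *MMP1*, against 25546 to 64219 CPM in the other 5 RIS libraries, and 483.7 CPM of *TIMP3*, against 67.3 to 259.8 CPM. The 5 proliferation markers followed the same split, with a sum of 80.8 CPM in the first library (433.1 to 682 CPM in the others of its label) and 540.8 CPM in the second (57.8 to 88.9 CPM in the others). Whether this pair of libraries was exchanged was not tested, and growing and RIS values over 24 samples hold only as far as those labels do. The tests that involve growing or RIS are therefore given with all 24 samples, as labelled, and with the 22 samples that remain without both libraries, and group medians also without them where they moved by over 1.5 times. Both libraries stood out in the members' own values. Fold changes, p-values and lack of overlap of members in 22 samples rest in part on that choice and are not separate evidence.

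**Figure D1:**
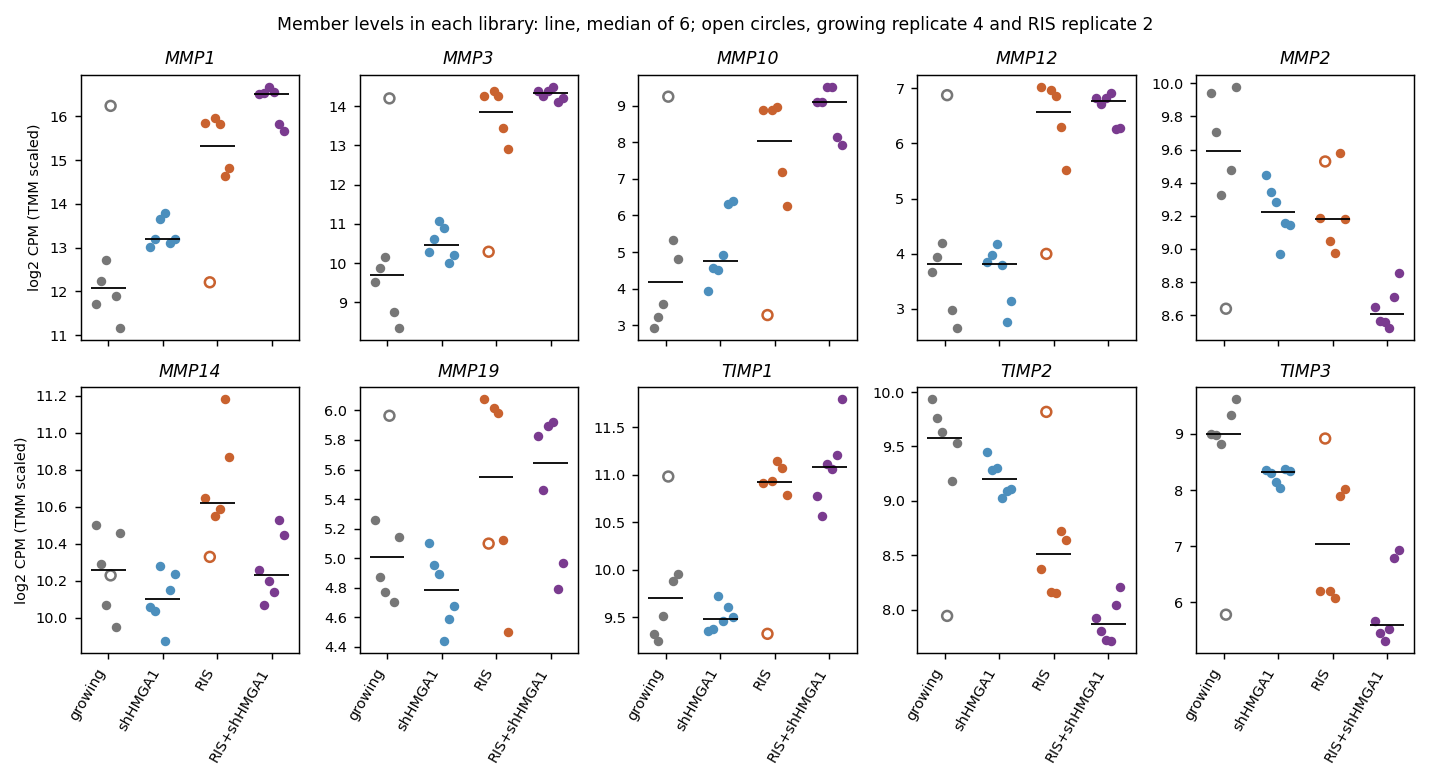
Level of each member in every library, as log2 CPM after TMM scaling, in the 4 groups of 6 replicates; the line is the group median. The open circles, growing replicate 4 and RIS replicate 2, lie apart from the other 5 libraries of their group in *MMP1*, *MMP3*, *MMP10*, *MMP12*, *TIMP1*, *TIMP2* and *TIMP3*.

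Per kilobase of exon, *MMP1* (interstitial collagenase) was the highest of the 10 members in every group. Its median level was 2198 CPM per kb in growing cells, 4773 with the hairpin, 22141 in RIS and 47647 in RIS+shHMGA1 cells. In the last group its reads made up 4.83% to 7.73% of the total count of a library, against 0.92% to 1.54% in shHMGA1. *MMP3* (stromelysin-1) followed within the cluster at 459.7, 776.2, 8495 and 11276 CPM per kb in the same order of groups.

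*MMP10* (stromelysin-2) and *MMP12* (macrophage elastase) were far lower. Median levels of *MMP10* were 11.2, 15.3, 174.6 and 311.9 CPM per kb, and those of *MMP12* 7.64, 7.66, 53.4 and 59.8 CPM per kb. Without the pair of unusual libraries the *MMP10* medians were 6.64 in growing and 267 in RIS. *MMP10* made up at most 1.16% and *MMP12* at most 0.327% of the summed cluster level per kb in any library.

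Outside the cluster, *TIMP1* had the highest median in every group, from 931 CPM per kb in shHMGA1 to 2822 in RIS+shHMGA1. *MMP14* (a membrane-type MMP that activates pro-MMP2) lay between 297.1 and 425.9 CPM per kb in all 4 groups and *MMP2* (gelatinase A) between 110.9 and 220.4. *MMP19*, another secreted MMP, was the lowest of this set in growing, shHMGA1 and RIS cells, between 8.5 and 15.1 CPM per kb, and lay at 15.5 in RIS+shHMGA1. The order in RIS rested on the library labelled RIS replicate 2. Without it *MMP19* was at 19.5 and *TIMP3*, at 15.96, was the lowest (33.7 with it). *TIMP2* was at 209.6 and *TIMP3*, the matrix-bound inhibitor, at 110.9 CPM per kb in growing cells. In RIS+shHMGA1 cells they were at 63.8 and 10.4, which placed *TIMP3* last of all members.

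To ask how the family responded to oncogenic RAS when HMGA1 was depleted, RIS+shHMGA1 was set against shHMGA1, a comparison that neither unusual library enters except through the shared estimate of the spread. A gene was called at an adjusted p under 0.01 with an absolute log2 fold change over 0.58. Of the 10 members, 5 were called higher and 3 lower, where 19.6% of the 13356 genes tested were called higher and 19.5% lower. The median log2 fold change was 3.29 over the 4 cluster genes and -0.21 over the other 6, and it was -0.02 over all genes. In 22 samples 6 were called higher and 3 lower (22.5% and 21.9% of 13416 genes).

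In this comparison *MMP1* went from 8272, 9407 and 14159.6 CPM (lowest, median, highest in shHMGA1) to 51978, 93912 and 105097 CPM in RIS+shHMGA1. Every RIS+shHMGA1 library lay above every shHMGA1 library. The share of all genes without overlap was not counted, here or below, so such statements only describe the values of each gene. The log2 fold change was 2.99 ± 0.73 (SE, n = 6 per group, adjusted p = 0.0019).

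*MMP3*, which cleaves proteoglycans and activates other pro-MMPs, went from 1018, 1414 and 2156 CPM to 17511, 20544 and 23165 CPM. The ranges did not overlap, and the RIS+shHMGA1 libraries lay close together. Its log2 fold change of 3.75 ± 0.84 (adjusted p = 0.001) had the highest value among the 10 members.

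*MMP10* went from 15.1, 27 and 83.4 CPM to 244.4, 548.6 and 734.6 CPM (log2 fold change 3.60 ± 1.01, adjusted p = 0.0044). The groups did not overlap, but the libraries numbered 5 and 6 differed less between the groups than the others. In shHMGA1 they held 79.5 and 83.4 CPM, where the other 4 held 30.3 CPM or less. In RIS+shHMGA1 they held 283.2 and 244.4 CPM, where the other 4 held 543.6 CPM or more.

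*MMP12*, an elastase best known from macrophages, went from 6.64, 13.9 and 17.8 CPM to 76.7, 108.9 and 120.4 CPM. The groups did not overlap, and the log2 fold change was 2.99 ± 0.60 (adjusted p = 0.00048). The macrophage and leukocyte markers summed to 1.98 to 3.68 CPM (median 3.28) in the same RIS+shHMGA1 libraries and to 1.01 to 2.46 CPM (median 1.57) in shHMGA1. *CSF1R*, the only 1 of these 6 markers that passed the count filter, had 0.98 ± 0.36 (adjusted p = 0.022), and 0.98 ± 0.32 (adjusted p = 0.0084, called) in 22 samples. *MARCO*, another of them, had 0 counts in every shHMGA1 library. Their part in the *MMP12* value was not tested.

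Among the inhibitors, *TIMP1* moved in the same direction as the cluster. It went from 654.4, 715.9 and 848.2 CPM to 1512, 2170 and 3540 CPM, with no overlap and a log2 fold change of 1.63 ± 0.29 (adjusted p = 0.00026). *TIMP2*, which also helps MMP14 to activate pro-MMP2, moved the other way, from 521.2, 588.1 and 698 CPM to 209.3, 233.2 and 295.8 CPM, again with no overlap (log2 fold change -1.31 ± 0.27, adjusted p = 0.00062).

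*TIMP3* fell the most, from 261.2, 319.9 and 332.8 CPM to 39.4, 47.9 and 122.3 CPM. Its log2 fold change was -2.17 ± 0.51 (adjusted p = 0.0014). All RIS+shHMGA1 libraries lay below all shHMGA1 libraries, with the libraries numbered 5 and 6 the highest of RIS+shHMGA1.

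*MMP2* fell less, from 500.3, 597.2 and 696.2 CPM to 367.2, 389.7 and 461.9 CPM, without overlap (log2 fold change -0.59 ± 0.17, adjusted p = 0.0054), just past the fold threshold. *MMP14* was not called, at 0.17 ± 0.14 (adjusted p = 0.28), and its groups overlapped. *MMP19* was not called at 0.75 ± 0.27 (adjusted p = 0.018) and was called in 22 samples at the same log2 fold change of 0.75 ± 0.23 (adjusted p = 0.0055). It overlapped between the groups in both cases.

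**Figure D2:**
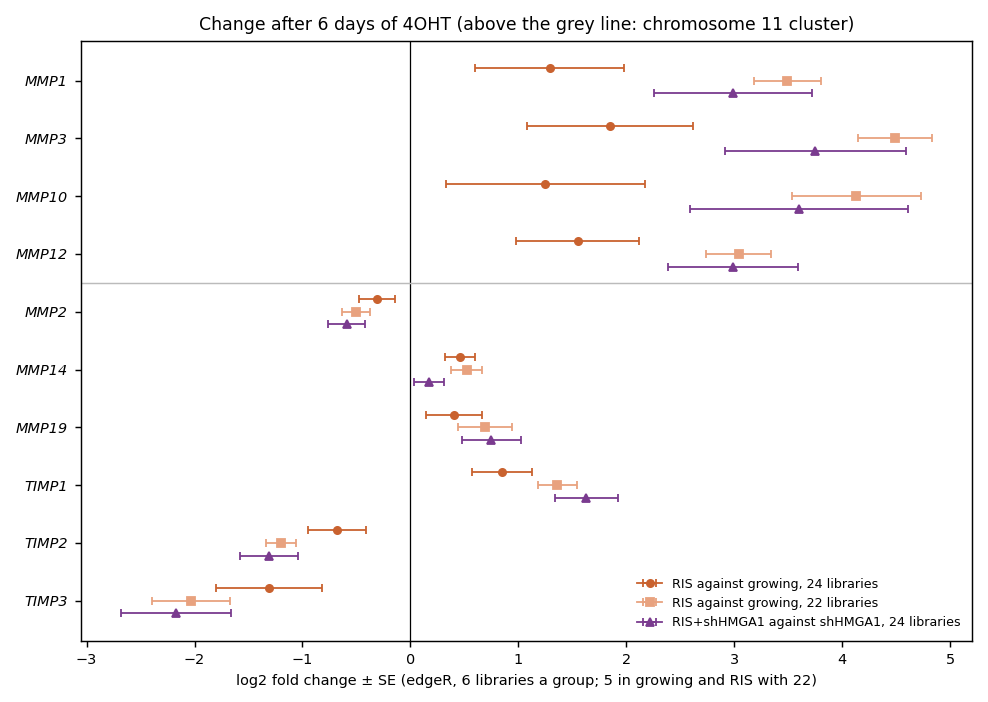
Log2 fold change with its standard error for each member after 6 days of 4OHT, with the control vector (24 and 22 libraries) and with the hairpin (24 libraries). With the hairpin the cluster genes lie between 2.99 (*MMP1*, *MMP12*) and 3.75 (*MMP3*), and with the vector between 1.25 (*MMP10*) and 1.85 (*MMP3*) in 24 libraries and between 3.04 and 4.49 in 22.

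With the control vector, RIS against growing in 24 samples gave 0 members called higher and 0 lower by edgeR, where 0% of 13356 genes were called higher and 0% lower (smallest adjusted p 0.014). At an unadjusted p under 0.05 there were 6 members and 4407 genes (33%). DESeq2 called 0 members and 6.23% of genes, and limma voom with sample weights called 8 members and 47.3% of genes. By edgeR, leaving out number 2 from every group gave 2 members and 13.7% of genes, and leaving out number 4 gave 5 members and 15.6%. Without the libraries labelled growing replicate 4 and RIS replicate 2, edgeR called 5 members higher and 2 lower, against 19.2% and 20.5% of 13416 genes. All 10 members then had an unadjusted p under 0.05, as did 65.3% of genes.

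In those 22 samples *MMP1* went from 2288, 3803 and 6727 CPM in growing to 25546, 58252 and 64219 CPM in RIS. The ranges did not overlap, and the log2 fold change was 3.49 ± 0.31 (adjusted p = 1.3e-09), against 1.29 ± 0.69 (adjusted p = 0.2) in 24 samples. *MMP3* had 4.49 ± 0.34 (adjusted p = 6e-11), against 1.85 ± 0.77 (adjusted p = 0.1).

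*MMP10* had 4.13 ± 0.60 (adjusted p = 2.6e-06) in 22 samples and 1.25 ± 0.92 (adjusted p = 0.35) in 24. *MMP12* had 3.04 ± 0.30 (adjusted p = 6.7e-09) and 1.55 ± 0.57 (adjusted p = 0.064). For all 4 cluster genes the RIS libraries lay above all growing libraries in 22 samples and overlapped with them in 24. The libraries left out stood out in these same genes, so the lack of overlap follows in part from leaving them out. The share of all genes that did so was not counted, and 65.3% had an unadjusted p under 0.05 by edgeR in 22 samples.

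*TIMP1* was called higher in 22 samples (1.36 ± 0.18, adjusted p = 6.4e-07), and *TIMP2* (-1.20 ± 0.14, adjusted p = 1.5e-07) and *TIMP3* (-2.03 ± 0.36, adjusted p = 4e-05) lower, all without overlap. In 24 samples these were 0.85 ± 0.28 (adjusted p = 0.046), -0.68 ± 0.27 (adjusted p = 0.084) and -1.31 ± 0.49 (adjusted p = 0.071). None of the other MMPs among the members was called. *MMP14* had 0.52 ± 0.14 and *MMP2* -0.50 ± 0.13 in 22 samples, both under the fold threshold, and *MMP19* had 0.69 ± 0.25 (adjusted p = 0.018).

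RIS+shHMGA1 against growing, which joins both changes, gave 4 members called higher and 3 lower in 24 samples (22% and 23.9% of genes), and 5 and 3 in 22 samples (28.3% and 28.5%). *MMP1* rose by 2.34 ± 0.71 on the log2 scale (adjusted p = 0.0065), and by 4.31 ± 0.32 in 22 samples. *MMP3* had 2.44 ± 0.79 and 4.84 ± 0.34, and *MMP12* 1.79 ± 0.57 and 3.07 ± 0.30, called in both. *MMP10* was not called in 24 samples (2.14 ± 0.95, adjusted p = 0.048) and was called in 22 (4.76 ± 0.61). *TIMP3* had -2.84 ± 0.52 (adjusted p = 0.00024) and -3.08 ± 0.35. *MMP14*, at 0.02 ± 0.14, overlapped between the groups in both. Leaving out number 1, 2 or 5 from every group gave 4 members called (22.9%, 35.6% and 41.9% of genes), and leaving out 3 or 6 gave 3 (29.7% and 31.3%). This comparison shares libraries with the others, so its values are not separate evidence.

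To ask what depletion of HMGA1 did in senescent cells, RIS+shHMGA1 was set against RIS. By edgeR, 0 members were called, in 24 samples (1.77% of genes higher, 0.786% lower) as in 22 samples (10% higher, 2.5% lower). At an unadjusted p under 0.05 there were 4 members in 24 samples and 5 in 22, near the shares over all genes (49.8% and 49.5%). In 24 samples DESeq2 called 3 members, where it called 12.8% of genes, and voom called 1, where it called 13.9%. With number 4 left out of every group edgeR called 3 members and 16.5% of genes, and with the replicate number as a block it called 1 member, *MMP2*, and 12.3% of genes.

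The members with the lowest p-values in 24 samples were *MMP2*, *MMP14*, *TIMP2* and *TIMP3*, each with a negative fold change. *MMP2* lay at 504 to 765.7 CPM in RIS and at 367.2 to 461.9 CPM in RIS+shHMGA1, which did not overlap (log2 fold change -0.62 ± 0.17, adjusted p = 0.015). In 22 samples its adjusted p was 0.0028, with a log2 fold change of -0.56 ± 0.13, under the fold threshold. With the replicate number as a block it was called, at -0.61 (adjusted p = 0.0053), although the numbers were not taken as pairing. *TIMP3* had the lowest log2 fold change, -1.54 ± 0.50 (adjusted p = 0.026) and -1.05 ± 0.34 (adjusted p = 0.019) in 22 samples, with overlap.

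*TIMP2* had -0.86 ± 0.27 (adjusted p = 0.023), and -0.52 ± 0.14 (adjusted p = 0.0059) in 22 samples. The library labelled RIS replicate 2 held its highest value in the RIS group. *MMP14* had -0.44 ± 0.14 (adjusted p = 0.024) and -0.50 ± 0.13 (adjusted p = 0.0059). Its 5 remaining RIS libraries, at 1501 to 2320 CPM, lay above all RIS+shHMGA1 libraries, at 1078 to 1479 CPM.

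The cluster had positive values that did not pass the test. *MMP1* lay at 4728, 43639.9 and 64219 CPM in RIS and at 51978, 93912 and 105097 CPM in RIS+shHMGA1, which overlapped (log2 fold change 1.06 ± 0.69, adjusted p = 0.22). In 22 samples it had 0.82 ± 0.28 (adjusted p = 0.023) and the groups still overlapped. The overlap came from the RIS+shHMGA1 libraries numbered 5 and 6, at 57856 and 51978 CPM, while the others of that group held 92636 CPM or more. *MMP3* had 0.59 ± 0.75, *MMP10* 0.89 ± 0.91 and *MMP12* 0.24 ± 0.55, and in 22 samples 0.35 ± 0.28, 0.63 ± 0.50 and 0.03 ± 0.26. The median was 0.74 over the cluster and -0.53 over the other members, beside -0.06 over all genes. In 22 samples these medians were 0.49, -0.51 and -0.03.

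**Figure D3:**
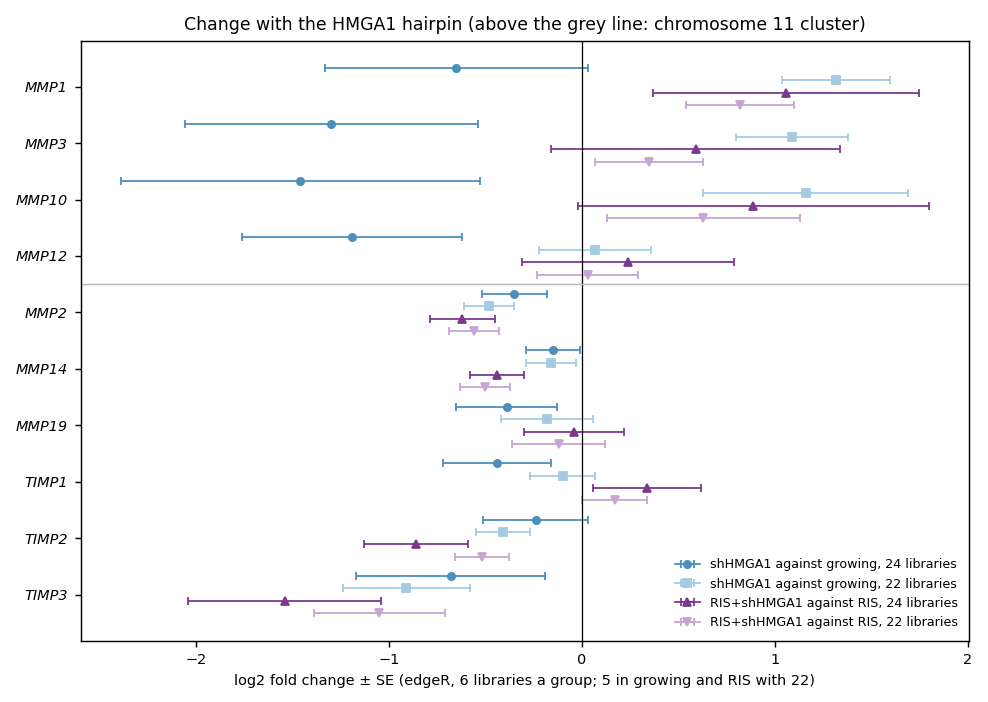
Log2 fold change with its standard error for each member with the *HMGA1* hairpin, in cells without 4OHT (blue) and with 4OHT (purple), in 24 and in 22 libraries. Without 4OHT the cluster values lie between -1.46 (*MMP10*) and -0.65 (*MMP1*) in 24 libraries and between 0.07 (*MMP12*) and 1.32 (*MMP1*) in 22.

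Without 4OHT, shHMGA1 against growing gave 0 members called by edgeR in 24 samples, where 0.135% of genes were called higher and 0.135% lower, and 1 member at an unadjusted p under 0.05, where 13.2% of genes were. DESeq2 called 0 members and 0.758% of genes, and voom 1 member and 6.33%. In 22 samples 1 member, *MMP1*, was called higher, against 1.21% of genes higher and 1.39% lower, and 6 members and 38.9% of genes had an unadjusted p under 0.05. *MMP1* lay at 8272 to 14159.6 CPM in shHMGA1 and at 2288 to 6727 CPM in the 5 growing libraries, which did not overlap (log2 fold change 1.32 ± 0.28, adjusted p = 0.0048).

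The direction of the cluster in this comparison differed between the fits. In 24 samples, the log2 fold changes were -0.65 ± 0.68 for *MMP1*, -1.30 ± 0.76 for *MMP3*, -1.46 ± 0.93 for *MMP10* and -1.19 ± 0.57 for *MMP12*. In 22 samples those of *MMP3*, *MMP10* and *MMP12* were 1.09 ± 0.29 (adjusted p = 0.016), 1.16 ± 0.53 (adjusted p = 0.11) and 0.07 ± 0.29 (adjusted p = 0.87). *TIMP3* had -0.68 ± 0.49 (adjusted p = 0.59), and -0.91 ± 0.33 (adjusted p = 0.053) in 22 samples, where all shHMGA1 libraries lay below all growing ones.

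The difference between the response to 4OHT with and without the hairpin was tested as an interaction. By edgeR 0 members were called, in 24 samples (0% of genes higher and 0% lower) and in 22 (0.00745% higher, 0% lower), with 0 members at an unadjusted p under 0.05 in both, where 10.3% and 3.82% of genes were. DESeq2 and voom also called 0 members, and 0.0376% and 0.0524% of genes. In 24 samples *MMP1* had 1.70 ± 0.97 (adjusted p = 0.43) and *MMP10* 2.34 ± 1.30 (adjusted p = 0.43). In 22 samples they had -0.50 ± 0.39 and -0.53 ± 0.72 (both adjusted p = 0.99). With voom in 24 samples the signs were also negative, at -0.36 and -0.70.

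Along chromosome 11, most listed neighbours of the cluster that are not MMPs were not called in RIS+shHMGA1 against shHMGA1. Of 11 listed genes beside it that are not MMPs, 10 were tested, with 2 called higher, 1 called lower and a median log2 fold change of -0.18, where 19.6% of all genes were called higher and 19.5% lower, and *TMEM123*, the nearest of them before *WTAPP1*, was not called. *DCUN1D5* had 1.13 ± 0.25 (adjusted p = 0.00094), and *PDGFD*, a growth factor gene, had -3.12 ± 0.56 (adjusted p = 0.00027).

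*WTAPP1*, a pseudogene annotated on the opposite strand across *MMP10* and *MMP1*, had 3.01 ± 0.73 (adjusted p = 0.0017), close to the value of *MMP1*. Its annotated exons overlap 223 of the 2738 exonic bases of *MMP1* and 32 of the 1854 of *MMP3*. Its count was 100 to 122 per 1000 *MMP1* counts in every library, while the *MMP1* count itself ran from 26289 to 1209889. The libraries were made with a strand-specific kit, but the strand setting of the counting was not given in the sources used here, and reads of the 2 genes cannot be told apart.

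**Figure D4:**
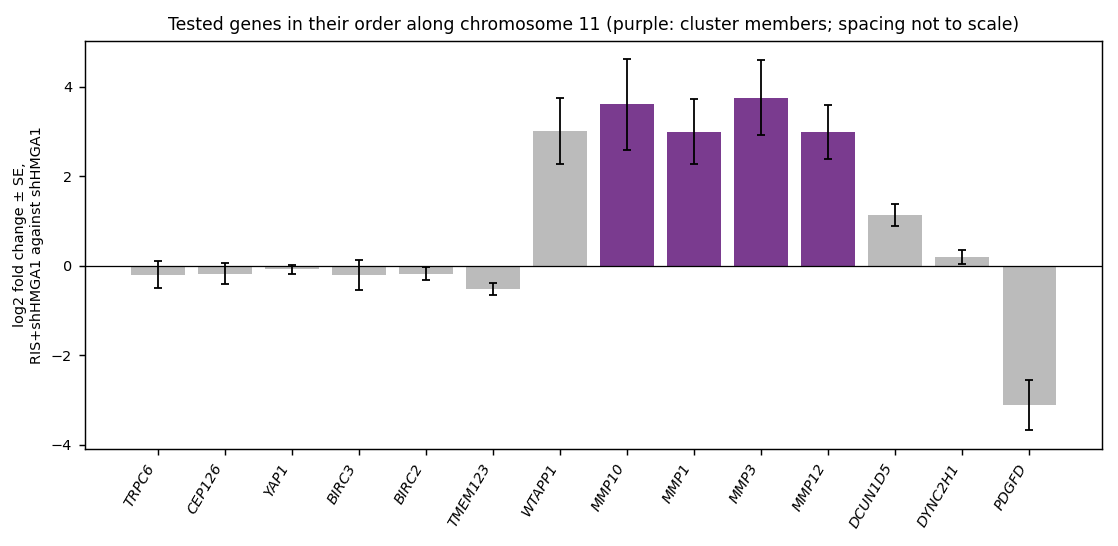
Log2 fold change with its standard error, RIS+shHMGA1 against shHMGA1 (6 libraries each), for the tested genes listed in and around the cluster, in their order along chromosome 11. *MMP10*, *MMP1*, *MMP3*, *MMP12* and *WTAPP1* lie between 2.99 and 3.75, *DCUN1D5* at 1.13 and *PDGFD* at -3.12. *MMP7* and *MMP8*, from the same stretch and also called higher, are not drawn.

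Of 16 further MMPs, 8 were tested, with 4 called higher and 2 lower in RIS+shHMGA1 against shHMGA1 (19.6% and 19.5% of all genes) and a median log2 fold change of 0.64. *MMP9* (gelatinase B) had 0 counts in all 6 shHMGA1 libraries and 12 to 52 counts in each RIS+shHMGA1 library, at least 54.4-fold higher against a floor of 3 counts over the shHMGA1 group. *MMP7* (matrilysin), also annotated on chromosome 11, rose by 1.70 ± 0.39 on the log2 scale (adjusted p = 0.0013), from 3 to 14 counts up to 14 to 32 counts. *MMP8* (neutrophil collagenase), from the same stretch and named after its values were seen, was called higher at 11 to 22 counts, against 0 to 6.

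*MMP24*, a membrane-type MMP, rose by 0.59 ± 0.14 (adjusted p = 0.0016). *MMP17* (-0.98 ± 0.24, adjusted p = 0.002) and *MMP11* (-0.95 ± 0.23, adjusted p = 0.0019), the stromelysin-3 gene, fell. The further MMPs were low, at most 38.4 CPM as the median of any of the 3 groups growing, shHMGA1 and RIS+shHMGA1.

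All 3 further inhibitors were called, 1 higher and 2 lower, where 19.6% of all genes were called higher and 19.5% lower. *RECK*, a membrane-anchored inhibitor of MMPs, fell with a log2 fold change of -2.32 ± 0.39 (adjusted p = 0.00022). *A2M*, which traps many proteases, had -1.19 ± 0.32 (adjusted p = 0.0036), and *TIMP4* had 1.36 ± 0.42 (adjusted p = 0.008), from 16 to 33 counts up to 26 to 68 counts.

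The related protease families had no member called higher, where 19.6% of all genes were. Of 7 tested ADAM sheddases, 3 were called lower, where 19.5% of all genes were (*ADAM19* -2.10 ± 0.39, *ADAM9* and *ADAM10* -0.99 each), with a median of -0.37. Of 11 tested ADAMTS proteases, 4 were called lower beside the same 19.5%, among them *ADAMTS2*, the procollagen N-proteinase, at -2.17 ± 0.42 (adjusted p = 0.0004) and *ADAMTS1* at -1.87 ± 0.39 (adjusted p = 0.00061), with a median of -0.72. *ADAM19* was also lower in RIS+shHMGA1 than in RIS, at -1.73 ± 0.38 (adjusted p = 0.0079) in 24 samples and -1.34 ± 0.22 (adjusted p = 0.00045) in 22.

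Of 6 tested genes listed for the activation of pro-MMPs (enzymes and the receptor gene *PLAUR*), 0 were called higher and 2 lower, beside 19.6% and 19.5% of all genes. These were the proprotein convertases *FURIN* (-0.89 ± 0.21, adjusted p = 0.0013) and *PCSK7* (-1.24 ± 0.27, adjusted p = 0.00077), and the list had a median of -0.49. AP-1, a transcription factor of FOS and JUN proteins, is a classical regulator of *MMP1* and *MMP3*. Of its 7 subunit genes *FOSB* (1.71 ± 0.34, adjusted p = 0.00046) and *FOS* (0.99 ± 0.23, adjusted p = 0.0014) were called higher and *FOSL1* (-0.92 ± 0.20, adjusted p = 0.00075) lower, with a median of -0.12, beside the same shares over all genes. *FOSB* rose from 17 to 33 counts up to 36 to 74, and *FOS* from 13 to 26 up to 24 to 34. *FOSL1* held 500 counts or more in each of these libraries.

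The genes whose log2 CPM followed the mean profile of the 4 cluster genes most closely, among 10926 candidates, were *NDP* (Pearson r = 0.993), *CCL3* (0.991), *SQOR* (0.991), *ODC1* (0.990) and *MREG* (0.990) over 24 samples. Without the pair of unusual libraries they ranked 1, 3, 2, 5 and 7. The samples form a high and a low cluster that all these genes share, so these values only rank likeness.

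Summed per kb, the 4 cluster genes had medians of 2594 CPM per kb in growing cells, 5568 with the hairpin, 30000.5 in RIS and 59294 in RIS+shHMGA1 cells. Without the pair of unusual libraries they were 2192 in growing and 40769 in RIS. The sum of *MMP2*, *MMP14* and *MMP19* lay between 452.2 and 600.5 as a median in all groups. The cluster thus made up a median of 82.9% of the 7 summed MMPs in growing cells and 91.95% in shHMGA1 cells. In RIS the median was 97.5%, and in RIS+shHMGA1 it was 99.3%. In 22 samples growing was at 82.1% and RIS at 98.5%.

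The summed TIMPs had medians of 1397, 1142, 2624 and 2888 CPM per kb in the same order, with 1264 in growing and 2634 in RIS in 22 samples. *TIMP1* made up a median of 76.3% of that sum in growing cells and 97.3% in RIS+shHMGA1. The ratio of summed TIMP to summed MMP level ran from 0.129 to 0.222 in shHMGA1 (median 0.187) and from 0.034 to 0.126 in RIS+shHMGA1 (median 0.0449), which did not overlap. In growing cells it ran from 0.279 to 0.817 and in RIS from 0.0582 to 0.147 in 22 samples, while the libraries labelled growing replicate 4 and RIS replicate 2 were at 0.0534 and 0.324. These are ratios of RNA levels and carry no measure of protein or activity.

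**Figure D5:**
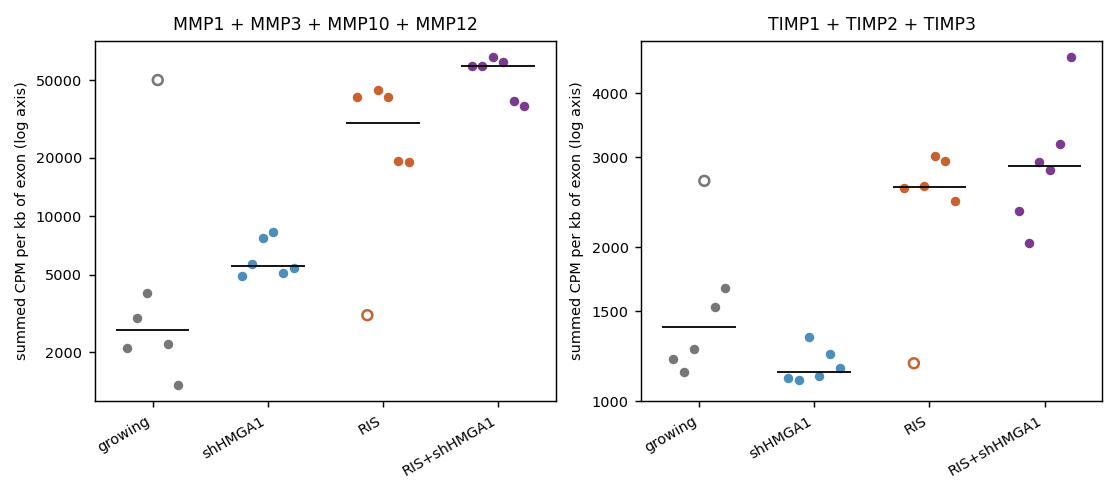
Summed level per kb of exon (log axes) of the 4 cluster MMPs and of the 3 TIMPs in every library, with group medians as lines and growing replicate 4 and RIS replicate 2 as open circles. The cluster medians are 2594, 5568, 30000.5 and 59294 CPM per kb and the TIMP medians 1397, 1142, 2624 and 2888.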

How the data were processed

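Raw counts per Entrez gene identifier, as deposited by the authors, were used for 24 RNA-seq libraries (TruSeq Stranded mRNA, HiSeq-2500). The authors aligned reads to hg19, kept a mapping quality of at least 20 and counted with Rsubread; the submitters' processing notes name STAR 2.5.0b and cutadapt 1.10.0. The gene annotation, strand setting and Rsubread version were not given in the sources used here. Replicates were compared within groups (60 pairs, lowest chi-square per degree of freedom 2.89), and no pair agreed within sampling noise.

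Groups came from the labels. edgeR 4.0.16 (R 4.3.3, limma 3.58.1) was run with filterByExpr, TMM scaling and 1 quasi-likelihood fit over all groups, for 13356 genes, with Benjamini-Hochberg adjustment. DESeq2 1.42.0, voom, other filters, thresholds and left-out libraries were alternatives, and the pipeline was tested on simulated data. CPM per kb used the canonical GRCh37 transcript length. Named genes were the members, and for each gene list up to 5 called genes with a mean log2 CPM of at least 0 by absolute fold change. The members and lists were chosen with earlier results of these data known. The same replicate number in different groups did not mark a shared culture in the labels.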

Additional observations from a re-analysis of the deposited data

Results flagged for a closer look

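In groups of 6, the highest or lowest library was compared with its nearest neighbour, as a share of the whole range, on the log2 CPM scale (total counts unlogged) and set against Dixon's critical value. Of 44 such tests 11 passed, where chance gives about 1 in 20, or 2.2. The members correlate with one another (r of 0.85 to 0.98 between cluster genes over 24 samples). The tests are therefore not independent, and the number that passed is only a description. The library labelled growing replicate 4 gave 5 of them, with 0.694 for *MMP1*, 0.692 for *MMP3*, 0.633 for *MMP12*, 0.626 for *TIMP2* and 0.791 for *TIMP3*. The library labelled RIS replicate 2 gave 4, with 0.647 for *MMP1*, 0.640 for *MMP3*, 0.808 for *TIMP1* and 0.658 for *TIMP2*. The total counts of growing replicate 1 (0.796) and RIS replicate 3 (0.684) were the other two, both on the high side of their group.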

How the results depend on the processing

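Results are log2 fold changes and counts of members called. In RIS+shHMGA1 against shHMGA1, 6 to 9 of the 10 members were called under every alternative run. The main fit called 19.6% of all genes higher and 19.5% lower there. Of 1265 recomputed fold changes of named genes, 1138 kept direction and side of the threshold, 49 lost and 46 gained a call, and 32 changed sign; in each sign change below the cause was not tested.

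In RIS against growing (0 called), voom called 8 (47.3% of genes) and an FDR of 0.05 gave 1. In 22 samples 7 were called (19.2% of genes higher, 20.5% lower). Leaving out a replicate number in turn gave 0 to 5, with 5 without number 4 (15.6%) and 2 without number 2 (13.7%). In shHMGA1 against growing (0), voom called 1 (6.33%) and 22 samples 1 (1.21% higher, 1.39% lower). In RIS+shHMGA1 against growing (7), the samples of the contrast alone gave 4 and leaving out a number gave 3 to 8. The 3 came without number 3 (29.7%) and without number 6 (31.3%). In RIS+shHMGA1 against RIS (0), DESeq2 called 3 (12.8%), voom 1 (13.9%) and an FDR of 0.05 gave 3. Leaving out a number gave 0 to 3 there, with 3 without number 4 (16.5%). Counts without a share of all genes beside them describe the members only.

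With the replicate block, RIS+shHMGA1 against RIS gave 1 call (*MMP2*, -0.61, adjusted p = 0.0053), where 12.3% of genes were called. In the same fit shHMGA1 against growing turned positive for *MMP1* (0.44), *MMP3* (0.09) and *MMP10* (0.20). Of 36 same-number pairs 24 had a correlation of deviations over 0.1 (median 0.178), and 180 other-number pairs had a median of -0.0686. Of 24 samples 10 correlated best with their own number. The labels did not mark a shared culture, so the numbers were not taken as pairing. Whether they mark one was not tested, and these correlations do not exclude it. The libraries numbered 5 and 6 lay apart from the others of their group in some genes. *HMGA1* was at 58.1 and 54.4 CPM in shHMGA1, against 98.7 to 143.4 CPM. In RIS+shHMGA1 it was at 59.98 and 75.1 CPM, against 196.7 to 261.8 CPM. In growing cells, at 698.3 and 745.5 CPM, both lay within the range of the others. *MMP1* in RIS+shHMGA1 was at 57856 and 51978 CPM, against 92636 to 105097 CPM. What these numbers share was not tested.

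Cluster genes in shHMGA1 against growing turned positive with voom (*MMP1* 1.11, *MMP3* 0.87, *MMP10* 1.26) and in 22 samples (*MMP1* 1.32, *MMP3* 1.09, *MMP10* 1.16, *MMP12* 0.07). Over left-out numbers they ran from -0.87 to 1.20 for *MMP1*, -1.62 to 1.00 for *MMP3*, -1.97 to 1.21 for *MMP10* and -1.42 to 0.05 for *MMP12*, positive only without number 4. The interaction turned negative with voom (*MMP1* -0.36, *MMP3* -0.63, *MMP10* -0.70, *MMP19* -0.11, *TIMP1* -0.01; *TIMP3* turned positive, 0.03) and in 22 samples (*MMP1* -0.50, *MMP3* -0.74, *MMP10* -0.53, *MMP12* -0.05). Over left-out numbers it ran from -0.04 to 2.04 for *MMP1*, -0.30 to 2.37 for *MMP3* and -0.19 to 2.80 for *MMP10*.

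Values near 0 also changed sign: with voom *MMP12* (-0.04) and *TIMP1* (-0.01) in RIS+shHMGA1 against RIS and *MMP14* (-0.05) in RIS+shHMGA1 against growing. Over left-out numbers *MMP14* ran there from -0.09 to 0.08, and *MMP19* in RIS+shHMGA1 against RIS from -0.10 to 0.01. Every member had 70 counts or more in each library, so counting error was small beside the spread between replicates. Some further genes, such as *MMP7*, *MMP8*, *MMP9*, *TIMP4*, *A2M*, *PDGFD*, *FOS* and *FOSB*, rest on few counts.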
